A study of Mus musculus with 6 samples.

Results

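The cytokine genes Tnf, Il6, Il10, Il12a, Il12b, Il23a, Il27, Lif, Osm and Tgfb1 were examined in Raw 264.7 cells, a transformed mouse monocyte and macrophage line, with and without the alarmin IL-33. They were taken by gene symbol, and all 10 of the 10 were measured among 22180 genes on the arrays, each by a single probe set. Tgfb1, the gene of transforming growth factor beta 1, belongs to a cytokine family of its own and was read with the others as a product of macrophages. The 3 arrays labelled IL-33 held RNA of cells treated with 50 ng/ml IL-33, and the 3 labelled PBS held RNA of cells given PBS alone. Both groups were the same cell line, grown with 10% serum, starved and then kept in 2% serum. How long the treatment lasted is not stated in the labels. Nor do they say whether replicates were separate cultures, so the p-values rest on a spread between samples that may be only technical.

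The directions below follow the sample titles. The array identifiers in the descriptions carry IL on PBS samples and P on IL-33 samples, so each sign would turn if the titles were exchanged. Values are log2 expression levels, and a difference of 1 is a 2-fold change. Array medians lay between 5.31 and 5.36 and array maxima between 13.62 and 13.66. Of 10 measured macrophage markers, 9 lay above 5.29, the 95th percentile of olfactory and vomeronasal receptor genes, among them Csf1r, Cd68 and Lyz2. Mertk, an efferocytosis receptor, lay below it.

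TNF is made by macrophages as a membrane protein, shed by the protease ADAM17, and read by the receptors encoded by Tnfrsf1a and Tnfrsf1b. IL-6, LIF and oncostatin M belong to one family and share a signalling chain, encoded by Il6st, that activates STAT3. IL-10 restrains macrophage cytokine production, also through STAT3. IL-12, IL-23 and IL-27 are heterodimers. Il12b encodes a chain shared by IL-12, with the Il12a product, and IL-23, with the Il23a product, while the Il27 product pairs with that of Ebi3. Transcription of many of these genes in macrophages is driven by NF-kB, the factor that receptors of the IL-1 family activate.

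No cytokine gene of the 10 passed the test between IL-33 and PBS arrays (limma, Benjamini-Hochberg adjusted p under 0.05 over all 22180 genes), where 0.591% of all genes passed in either direction. One of them, Il27, was 1.21-fold higher in the IL-33 arrays without passing, and the other 9 differed by at most 1.06-fold. The 95% intervals of the measured signal reached at most 1.38-fold up and 1.23-fold down, so a 1.5-fold change of that signal lay outside them. Il12a and Il12b lay under 5.29, the receptor percentile used as a guide to background. Their intervals therefore bound the signal of the probe set and may not bound the transcript. The array's background probe sets, binned by GC content, ran up to 8.83, above all 10 genes but Tnf, Tgfb1 and Osm. The same limit may therefore hold for others of the 10. Tnf lay near the top of the scale, so its interval likewise bounds the signal and may not bound the transcript. Of the differences, 5 lay above 0 and 5 below, with a median of 0.0047 (log2), against -0.0051 over all genes. The median absolute difference was 0.071 for these genes and 0.073 for all genes. At an unadjusted p under 0.05, Il27 alone of the 10 passed, where 13.2% of all genes did.

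**Figure D1:**
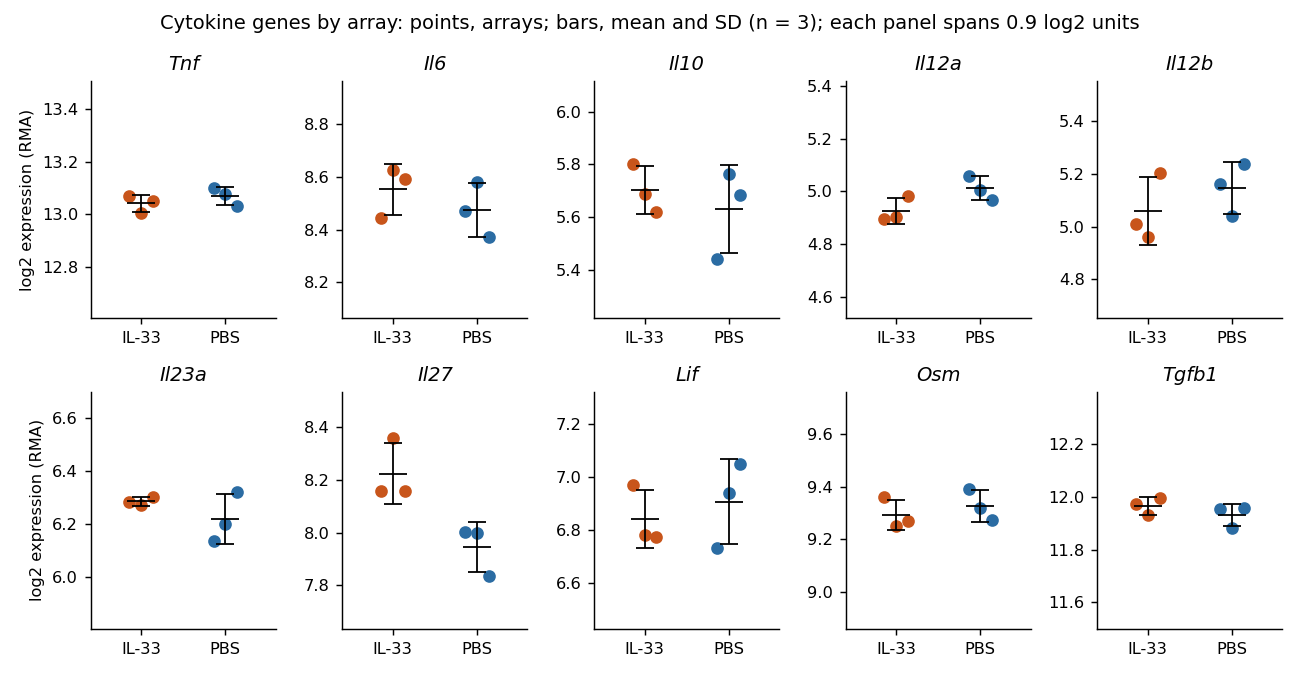
Log2 expression of each cytokine gene (vertical axes, 0.9 log2 units in every panel) in the 3 IL-33 arrays and the 3 PBS arrays; points are arrays and bars the mean with SD. The groups overlap in 9 panels, and only for Il27 do the 3 IL-33 points lie above the 3 PBS points.

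The upstream sequences of Tnf, Il6 and Il12b are shown because these genes are textbook NF-kB targets with different levels on the arrays. Their means over the 6 arrays were 13.06, 8.51 and 5.10 (log2). Each line holds the 250 bases before the annotated start, 5′ to 3′ on the gene's strand, from RefSeq (GRCm38.p6). Tnf lies at chr17:35202008-35202257 (minus strand), Il6 at chr5:30012864-30013113 (plus strand) and Il12b at chr11:44399813-44400062 (plus strand). Capitals mark matches on either strand to the loose NF-kB type pattern GGGNNNNNCC.
Tnf: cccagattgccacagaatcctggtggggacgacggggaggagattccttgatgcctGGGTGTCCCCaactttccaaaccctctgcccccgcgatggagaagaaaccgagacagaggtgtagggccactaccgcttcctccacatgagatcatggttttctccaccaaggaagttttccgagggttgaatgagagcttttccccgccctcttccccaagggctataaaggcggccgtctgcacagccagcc
Il6: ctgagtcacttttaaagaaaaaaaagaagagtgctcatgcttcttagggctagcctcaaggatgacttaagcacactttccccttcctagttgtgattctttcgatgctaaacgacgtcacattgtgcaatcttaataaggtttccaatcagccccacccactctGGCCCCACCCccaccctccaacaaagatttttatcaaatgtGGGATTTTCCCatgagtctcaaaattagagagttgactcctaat
Il12b: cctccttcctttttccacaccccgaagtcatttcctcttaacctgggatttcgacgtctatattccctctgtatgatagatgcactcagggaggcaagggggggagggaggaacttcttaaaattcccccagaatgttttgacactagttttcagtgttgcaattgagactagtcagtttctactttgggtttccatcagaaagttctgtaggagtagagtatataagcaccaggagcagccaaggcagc

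The Tnf window held 1 match, which began 194 bases before the start. The Il6 window held 3, of which the pair beginning 44 and 43 bases before the start overlap on opposite strands. The Il12b window held none of these letters, and 45.8% of all 32851 windows in the table held at least 1 match, so a match singles out no gene. The AP-1 type pattern TGANTCA occurred once in the Il6 window, 249 bases before the start, and in 6.75% of all windows. The TATA type pattern TATAAA occurred in the Tnf window, 29 bases before the start, and in 12.4% of all windows. The core of the interferon-stimulated response element, GAAANNGAAA, occurred in none of the 3 windows and in 2.98% of all windows. The sequence table held windows for 6 of the 10 genes, the others being Il12a, Lif and Tgfb1.

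The positions of the genes on the scale of the arrays differed widely. Olfactory and vomeronasal receptor genes, which are used mainly by sensory neurons and served as a guide to background, had a median level of 3.38 and a 95th percentile of 5.29 (log2, 1390 genes). Il12a, at a mean of 4.97 over the 6 arrays, and Il12b, at 5.10, lay under that percentile, and Il10, at 5.67, lay just above it. The 23 background probe sets of the array, binned by GC content, ran from 2.49 to 8.83, so the level that marks background depends on base composition and no gene was called absent. At the other end, Tnf averaged 13.06 and 17 of the 22180 genes had a higher mean, and Tgfb1 averaged 11.95, with 256 genes higher. Levels of different probe sets also reflect probe affinity and were not compared as amounts of RNA.

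Differences were small over all genes at the top of the scale. Their SD was 0.085 (log2) among the 241 genes with a mean of 12 or more, against 0.146 among 12556 genes between these and the receptor percentile and 0.125 among 9383 genes below it. In the top range 1 gene passed the test, Gpnmb, or 0.415%, against 0.98% in the middle range and 0.0746% in the lowest. The share of the Tnf, Il12a and Il12b results that comes from their place on the scale was not tested.

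**Figure D2:**
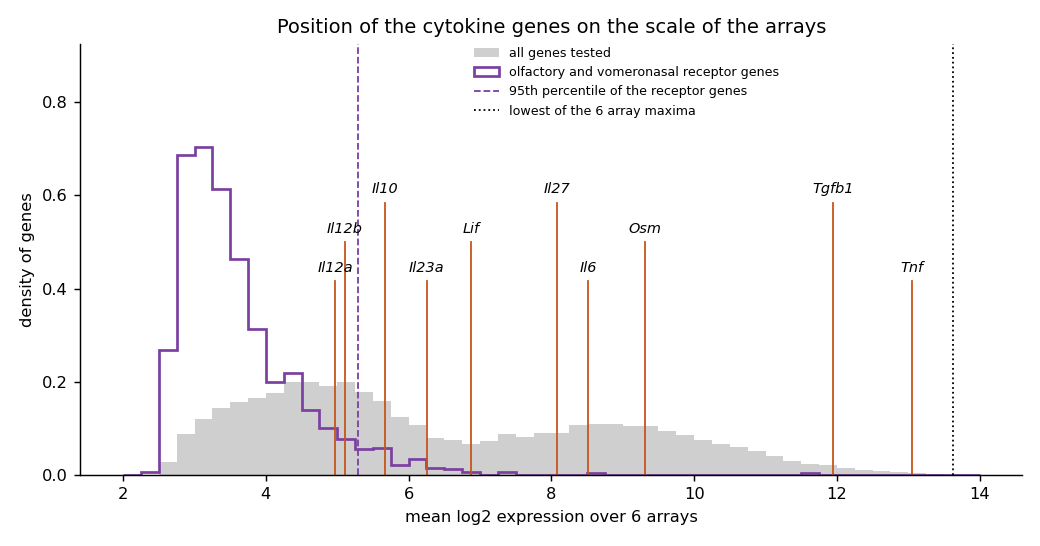
Density of genes (vertical axis) by mean log2 expression over the 6 arrays (horizontal axis) for all 22180 genes and for 1390 olfactory and vomeronasal receptor genes; vertical marks show the cytokine genes, their heights having no meaning. Il12a and Il12b lie left of the receptor genes' 95th percentile of 5.29, and Tnf lies close to the lowest array maximum of 13.62.

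Tnf, the founding cytokine of its family, had levels of 13.07, 13.01 and 13.05 in the IL-33 arrays, against 13.10, 13.08 and 13.03 in the PBS arrays. All 6 values lay within 0.1 of each other and the groups overlapped. The log2 difference was -0.03 ± 0.05 (SE, n = 3 each), with a 95% interval of 0.905-fold to 1.06-fold, the narrowest of the 10, and an adjusted p of 0.866 (limma).

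Il6, which encodes an inducer of the acute phase response, had levels of 8.44, 8.63 and 8.59 in the IL-33 arrays and 8.47, 8.58 and 8.37 in the PBS arrays. The lowest value of the IL-33 group lay below the highest 2 of the PBS group. The difference was 0.08 ± 0.08 (log2, SE, n = 3 each), with an interval of 0.931-fold to 1.20-fold and an adjusted p of 0.726 (limma).

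Lif, named for the inhibition of leukaemia cell growth, had levels of 6.97, 6.78 and 6.77 in the IL-33 arrays, against 6.73, 6.94 and 7.05 in the PBS arrays. Osm, the oncostatin M gene, had 9.36, 9.25 and 9.27 in the IL-33 arrays and 9.39, 9.32 and 9.27 in the PBS arrays. Both genes overlapped between groups, and PBS replicate 1 was the lowest of all arrays for Lif and the highest for Osm. Differences were -0.07 ± 0.10 for Lif and -0.03 ± 0.06 for Osm (log2, SE, n = 3 each), with adjusted p of 0.827 and 0.849 (limma). The interval of Lif, from 0.815-fold to 1.12-fold, was the widest of the 10 on the log2 scale, at 0.23 to either side, against 0.12 for Tnf. Without PBS replicate 3 the Lif difference was 0.0052.

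Il10, the gene of the anti-inflammatory cytokine IL-10, had levels of 5.80, 5.69 and 5.62 in the IL-33 arrays, against 5.44, 5.76 and 5.68 in the PBS arrays. PBS replicate 1 lay below the other 5 arrays, which overlapped. The difference was 0.07 ± 0.09 (log2, SE, n = 3 each) with an adjusted p of 0.801 (limma), and it was -0.02 without that array. The interval ran from 0.901-fold to 1.23-fold.

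Tgfb1, whose product is secreted in a latent complex, had levels of 11.974, 11.930 and 11.997 in the IL-33 arrays and 11.954, 11.881 and 11.957 in the PBS arrays. The groups overlapped. The difference was 0.04 ± 0.05 (log2, SE, n = 3 each), with an interval of 0.944-fold to 1.11-fold and an adjusted p of 0.819 (limma).

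Among the chains of the IL-12 family, Il12a had levels of 4.893, 4.902 and 4.984 in the IL-33 arrays, against 5.059, 5.005 and 4.969 in the PBS arrays. Il12b had 5.01, 4.96 and 5.21 in the IL-33 arrays and 5.16, 5.04 and 5.24 in the PBS arrays. Both overlapped between groups, with the values of Il12a nearly apart. Their differences were -0.08 ± 0.05 and -0.09 ± 0.08 (log2, SE, n = 3 each), with adjusted p of 0.566 and 0.725 (limma). Both levels lay under the 95th percentile of the olfactory and vomeronasal receptor genes, and a change in a transcript at or below background would not be visible. Il23a, which encodes the chain particular to IL-23, had 6.28, 6.27 and 6.30 in the IL-33 arrays and 6.13, 6.20 and 6.32 in the PBS arrays. The IL-33 values were tightly grouped, with an SD of 0.016 against 0.095 in the PBS arrays, and lay inside the PBS range. The difference of Il23a was 0.07 ± 0.06 (log2, SE, n = 3 each) with an adjusted p of 0.706 (limma).

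Il27, which encodes the chain particular to IL-27, had levels of 8.157, 8.358 and 8.158 in the IL-33 arrays, against 8.002, 7.997 and 7.836 in the PBS arrays. It was the single gene of the 10 whose groups did not overlap. Groups did not overlap for 20.3% of all genes, and for 10.3% in the direction of Il27. In the middle range of levels, which holds Il27, the share in either direction was 27.4%. Means were 8.22 ± 0.12 in the IL-33 arrays and 7.95 ± 0.09 in the PBS arrays (SD, n = 3 each), a difference of 0.28 ± 0.08 (log2, SE) with an interval of 1.07-fold to 1.38-fold. The adjusted p was 0.205 (limma), so the difference did not pass. The difference lay between 0.21 and 0.31 when any 1 array was left out. With a prior variance that followed intensity and was robust to outliers, the adjusted p was 0.0479 (limma), while 1000 genes in all passed in that setting against 131 here.

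Ebi3, the gene of the partner chain of IL-27, was looked up after the values of Il27 were seen. It had levels of 11.04, 11.02 and 11.10 in the IL-33 arrays and 11.01, 11.03 and 11.09 in the PBS arrays, which overlapped. Its difference was 0.01 ± 0.05 (log2, SE, n = 3 each), with an adjusted p of 0.973 (limma), and its other probe set differed by -0.03. By Pearson correlation over the 6 arrays, the genes most like Il27 were Mob3c (r = 0.993), Tmem176a (r = 0.989) and Spag5 (r = 0.984). None of these 3 passed the test, at 0.20, 0.25 and 0.13 (log2), where adjusted p was 0.284, 0.275 and 0.339 (limma). These correlations rest on the same 6 arrays and include the group difference, and 34 genes in all exceeded r = 0.95.

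**Figure D3:**
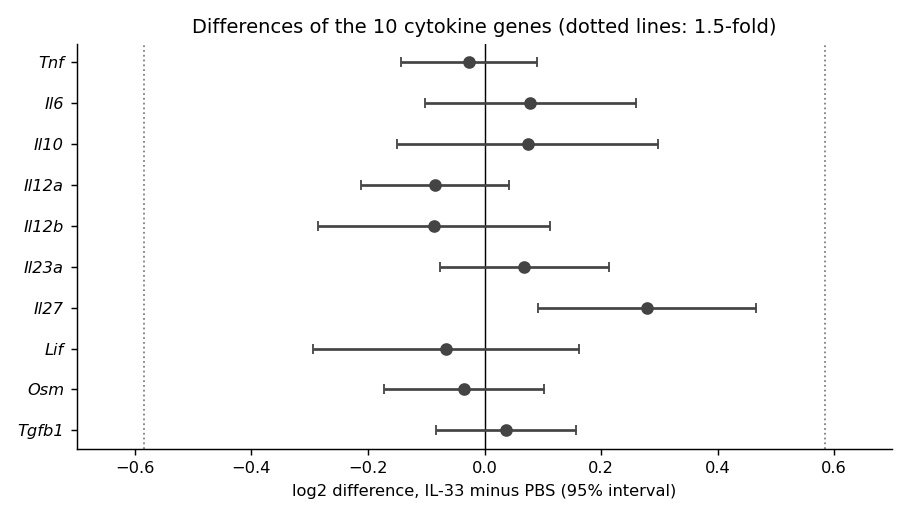
Log2 difference between IL-33 and PBS arrays (horizontal axis) for each cytokine gene, with the 95% interval of the limma fit over 22180 genes; dotted lines mark 1.5-fold. The interval of Il27 lies above 0, the other 9 include 0, and all 10 end short of the dotted lines.

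Genes that receive, release or regulate these cytokines were read from lists chosen by role. The counts at an unadjusted p under 0.05 given for each list stand beside 13.2% of all genes. Of the receptor genes, 15 of 15 were measured, 1 fell, none rose and 14 did not pass, and 0.316% of all genes fell. At an unadjusted p under 0.05 there were 3, with Il10rb and Il12rb2 at -0.18 and -0.23 (log2) beside the first. The receptor gene that fell was Tnfrsf1b, which encodes the TNF receptor found mainly on immune and endothelial cells. Its levels were 10.12, 10.11 and 9.88 in the IL-33 arrays, against 10.82, 10.67 and 10.75 in the PBS arrays. The groups lay far apart relative to their spread, and the difference was -0.71 ± 0.08 (log2, SE, n = 3 each), a level 1.64-fold lower (limma, adjusted p = 0.0206). The difference was between -0.75 and -0.64 when 1 array was left out, and passed in only 1 of the 6 such fits, that without IL-33 replicate 1, with adjusted p between 0.0420 and 0.113.

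The other TNF receptor gene, Tnfrsf1a, which is expressed in most cell types, was chosen after its values were seen. Its levels were 10.03, 10.07 and 9.94 in the IL-33 arrays and 9.98, 9.94 and 10.06 in the PBS arrays. These overlapped, with a difference of 0.02 ± 0.06 (log2, SE, n = 3 each) and an adjusted p of 0.921 (limma). The difference between the 2 receptor genes' responses was not tested. Over the 15 receptor genes 11 differences lay below 0, with a median of -0.04 (log2). Il6st, Il6ra, Il10ra and Il10rb, the chains for IL-6 and IL-10 signalling, had differences of -0.01, -0.04, 0.09 and -0.18. None of them passed, and only for Il10rb did the groups not overlap.

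Other ligands of these families gave no gene that passed among 23 measured of 27 listed, with a median difference of -0.06 (log2) and 3 at an unadjusted p under 0.05. The smallest p belonged to Ltb, the lymphotoxin beta gene, with a difference of 0.28 ± 0.07, and to Tnfsf10, the gene of the death ligand TRAIL, with 0.36 ± 0.10 (log2, SE, n = 3 each). Their adjusted p were 0.170 and 0.190 (limma), and the groups of both did not overlap. The mean level of Tnfsf10, 4.96, lay under the receptor percentile of 5.29. The other gene of the 3 was Tnfsf15, a TNF family ligand singled out after its values were seen, whose groups did not overlap either, with a difference of -0.38 ± 0.11 (log2, SE, n = 3 each) and an adjusted p of 0.214 (limma). Ltb lay at 8.14, 8.09 and 8.30 in the IL-33 arrays, against 7.82, 7.94 and 7.93 in the PBS arrays.

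Release and activation genes gave none that passed among 15 measured, with a median of 0.03 (log2) and 3 at an unadjusted p under 0.05. Itgav, an integrin chain that can activate latent TGF-beta, had a difference of -0.27 ± 0.05, and Rhbdf2, which guides ADAM17 to the cell surface for TNF shedding, had 0.17 ± 0.05 (log2, SE, n = 3 each). The values of Rhbdf2 were 10.50, 10.53 and 10.52 in the IL-33 arrays and 10.35, 10.34 and 10.36 in the PBS arrays. These are narrow and separate groups, yet adjusted p was 0.191 for Rhbdf2 and 0.101 for Itgav (limma). The other, dimmer probe set of Itgav differed by -0.04. The other gene of the 3 was Thbs1, singled out after its values were seen. It differed by -0.23 ± 0.09 (log2, SE, n = 3 each), with an adjusted p of 0.340 (limma). Its groups did not overlap, and its mean level, 4.78, lay under the receptor percentile.

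Among 11 genes that control cytokine mRNA none passed, with a median of 0.04 (log2) and 4 at an unadjusted p under 0.05. Arid5a, an RNA-binding protein known to stabilise Il6 mRNA, differed by 0.31 ± 0.06, and Zfp36l1, which promotes decay of AU-rich mRNAs, by 0.30 ± 0.06 (log2, SE, n = 3 each). Adjusted p were 0.0901 and 0.103 (limma). The other 2 of the 4, singled out after their values were seen, were lower in the IL-33 arrays. They were Zfp36l2, a relative of Zfp36l1, at -0.35 ± 0.07, and Rc3h1, which encodes the mRNA decay factor roquin-1, at -0.21 ± 0.05 (log2, SE, n = 3 each), with adjusted p of 0.109 and 0.135 (limma). Of the 11 differences 6 lay above 0 and 5 below. Groups did not overlap for 9 of the 11, in both directions, against 20.3% of all genes. All 11 lay above the receptor percentile, where the share was 27.6%. The list was not tested as a set.

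Among 13 measured of 15 signal transducers none passed, with a median of -0.04 (log2) and 2 at an unadjusted p under 0.05. Socs3, the feedback inhibitor of IL-6 receptor signalling, had 8.23, 8.24 and 8.13 in the IL-33 arrays, against 8.30, 8.42 and 8.34 in the PBS arrays. Its difference was -0.16 ± 0.06, and that of Stat4, which transmits IL-12 signals, was 0.22 ± 0.09 (log2, SE, n = 3 each), at a dim mean level of 3.64. Adjusted p were 0.322 and 0.360 (limma). The other, dimmer probe set of Socs3, at a mean of 5.35, differed by -0.26. None of the 10 STAT3 response genes passed, with a median of -0.02 and 2 at an unadjusted p under 0.05, Socs3 and Bcl3. Bcl3, a nuclear member of the IkB family, differed by 0.29 ± 0.08 (log2, SE, n = 3 each) with an adjusted p of 0.187 (limma).

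Transcription factors known to act on these cytokine genes gave none that passed among 13 measured of 15 listed, with a median of 0.05 (log2) and 5 at an unadjusted p under 0.05. Irf8, a factor of the macrophage lineage known to act on Il12b, had 10.76, 10.80 and 10.82 in the IL-33 arrays, against 10.46, 10.47 and 10.52 in the PBS arrays. The groups were narrow and apart, with a difference of 0.31 ± 0.05 (log2, SE, n = 3 each), a fold of 1.24 and an adjusted p of 0.0551 (limma), and the other probe set of Irf8 differed by 0.32. Cebpd, a leucine zipper factor that acts on Il6, differed by 0.31 ± 0.06 (log2, SE, n = 3 each) with an adjusted p of 0.0986 (limma). The others of the 5, singled out after their values were seen, were Nfkbiz, Irf1 and Atf3. They differed by 0.19 ± 0.05, 0.20 ± 0.06 and -0.17 ± 0.05 (log2, SE, n = 3 each), so Atf3 was lower in the IL-33 arrays. Adjusted p were 0.167, 0.198 and 0.238 (limma), and the groups of each did not overlap.

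**Figure D4:**
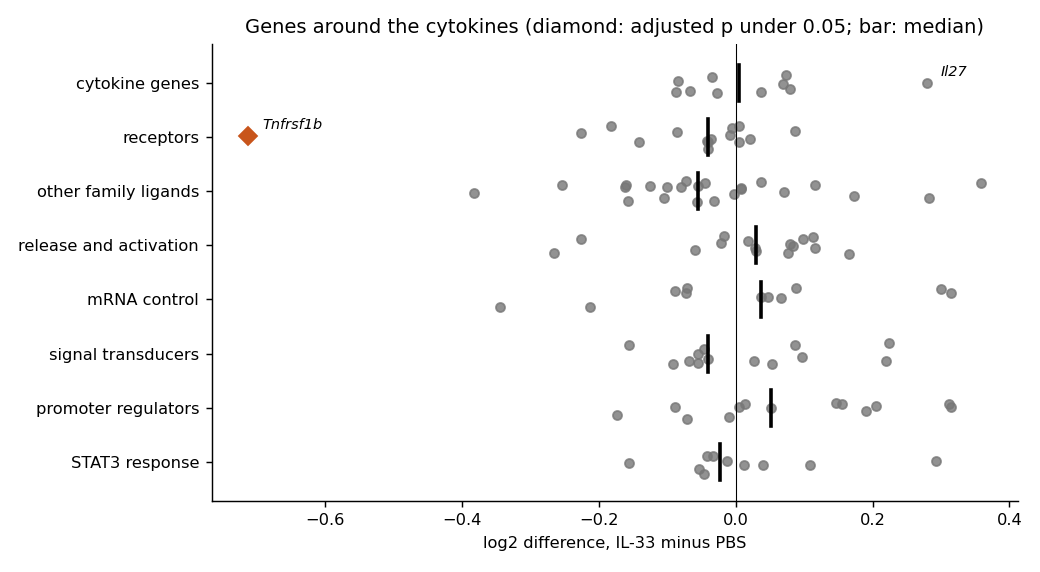
Log2 difference between IL-33 and PBS arrays (horizontal axis) for the 10 cytokine genes and for the genes of 7 lists chosen by role; each point is a gene, diamonds passed at an adjusted p under 0.05 and bars are medians. Tnfrsf1b, at -0.71, is the single diamond, and the list medians lie between -0.06 and 0.05.

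Markers of macrophages and of other cell types were read beside these genes, where 0.275% of all genes rose. None of 7 T and NK cell, 5 B cell, 5 dendritic cell or 6 fibroblast markers passed, and 6, 4, 2 and 3 of them lay under the receptor percentile of 5.29. At an unadjusted p under 0.05 there were 0, 1, 1 and 0, where 13.2% of all genes passed. Of 7 mast cell markers 5 lay under it and 1 rose, the histamine-forming enzyme gene Hdc, by 0.77 ± 0.08 (log2, SE, n = 3 each) with an adjusted p of 0.0183 (limma). Fcgr1, the high-affinity IgG receptor, was the macrophage marker of the 10 that rose, by 0.49 ± 0.07 (log2, SE, n = 3 each) with an adjusted p of 0.0448 (limma). Of the macrophage markers 5 differences lay above 0 and 5 below, and Adgre1, the gene of the F4/80 antigen, singled out after its values were seen, differed by -0.29 ± 0.06 (log2, SE, n = 3 each) with an adjusted p of 0.114 (limma). When 1 array was left out Fcgr1 passed in none of the 6 fits, and Hdc passed only without PBS replicate 2. Summed log2 levels of the dendritic cell list were 25.5 to 25.7 in the IL-33 arrays and 26.6 to 27.2 in the PBS arrays. Most of that gap belonged to the integrin gene Itgax, singled out after its values were seen, which differed by -1.09 ± 0.17 (log2, SE, n = 3 each) with an adjusted p of 0.0518 (limma). Summed levels of the mast cell list were 29.8 to 30.1 in the IL-33 arrays and 28.9 to 29.6 in the PBS arrays. In that list 3 differences lay above 0 and 4 below. Hdc, at 0.77, was the largest, and the others ran from -0.13 to 0.08 (log2). Summed levels of the macrophage list were 109.0 to 109.5 in the IL-33 arrays and 108.7 to 109.1 in the PBS arrays, and Fcgr1 had the largest difference there. The part of these markers in the values of the cytokine genes was not tested.

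**Figure D5:**
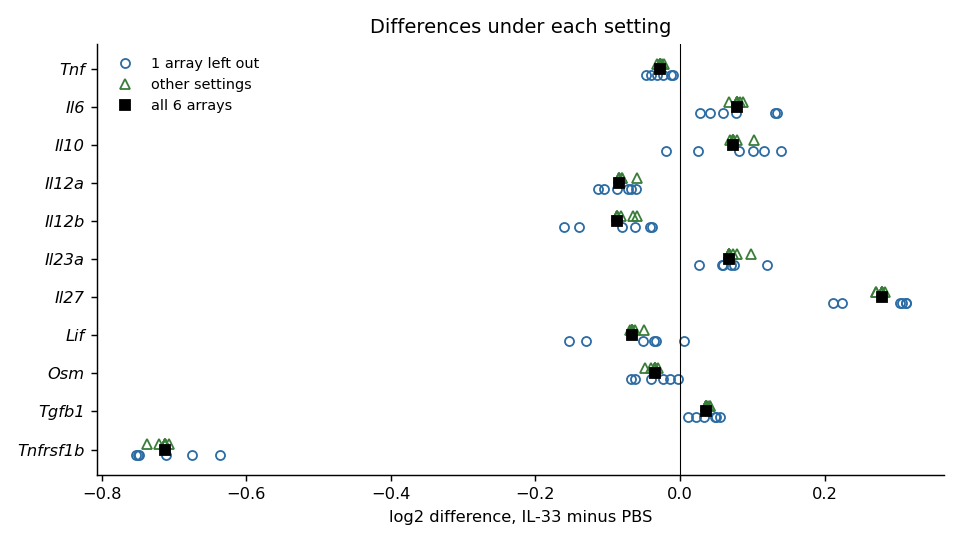
Log2 difference between IL-33 and PBS arrays (horizontal axis) for each cytokine gene and for Tnfrsf1b with all 6 arrays, with 1 array left out, and under other settings of the fit. Il27 stays between 0.21 and 0.31 and Tnfrsf1b between -0.75 and -0.64, while Il10 and Lif each cross 0 when 1 array is left out.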

How the data were processed

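Biotin-labelled cDNA from total RNA was hybridised to 6 arrays. The authors deposited log2 values per probe set made with RMA, per the submitters' processing notes, which name no version. RMA aligns the distributions of arrays, so a shift of most genes together would not be seen. Of 41345 probe sets, 23521 carried 1 gene symbol in the platform annotation, 1814 carried several and named no gene, and 16010 were unnamed. Each of 22180 genes was read at its brightest probe set. Entrez IDs of 23328 probe sets matched a RefSeq table (GRCm38.p6) and 0 symbols changed.

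The deposited values were fitted with limma 3.58.1 in R 4.3.3 (lmFit, eBayes, group as the single term, no filter), with Benjamini-Hochberg adjustment over all genes. Differences are IL-33 minus PBS. The number of arrays limits the precision. The fit was tested on simulated data. Figures used matplotlib 3.10.9.

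The cytokine genes and lists were chosen with earlier results of these data known. Named by rule were all 10 cytokine genes and, of each list, up to 3 genes that passed, or the 2 with the smallest p. Further list genes were named outside this rule, with their values known. Replicate numbers are shared between groups, and nothing states that they mark a shared culture. Deviations of same-numbered arrays correlated at 0.040, 0.057 and 0.019, so the numbers were not used as pairs. No 2 arrays were identical. Alternatives were 2 filters on dim genes, 2 normalizations, 2 choices of probe sets, the replicate block, a trended and robust prior variance, array weights and leaving out each array.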

Additional observations from a re-analysis of the deposited data

How the results depend on the processing

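Of 145 values of the 10 cytokine genes under 15 alternatives, 142 kept their direction and their side of the threshold, 1 passed (Il27, difference 0.28 with the trended and robust prior variance, so that 1 cytokine gene passed there) and 2 changed sign, and filters left out 5 more. The sign changes came without PBS replicate 1 for Il10, whose differences without 1 array ran from -0.020 to 0.14, and without PBS replicate 3 for Lif, from -0.15 to 0.0052. None of the 10 passed without any 1 array. Cytokine genes whose groups did not overlap numbered 1 to 4 of the 10 when 1 array was left out, where fewer arrays make overlap rarer. Over all genes 6226 to 7178 of 22180 did not overlap in those fits, against 4511 with 6 arrays. When every non-control probe set was tested, 6903 of 41155 did not overlap.

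The 131 genes that passed became 760 among genes at or above the median level, 537 among genes above the receptor percentile, 1000 with the trended and robust prior variance, 17 over all probe sets other than controls, and 15 to 83 without 1 array. With the replicate number as a block 21 passed, which uses fewer residual degrees of freedom, no cytokine gene passed, and Tnfrsf1b, Fcgr1 and Hdc had adjusted p of 0.101, 0.101 and 0.106 (limma). IL-33 replicates 1 and 2, but not 3, correlated best in their deviations with the PBS array of the same number. Over all probe sets other than controls the adjusted p of Tnfrsf1b, Fcgr1 and Hdc were 0.102, 0.179 and 0.0940 (limma). Fcgr1 had an adjusted p of 0.0540 (limma) with centring on the 75th percentile. With the trended and robust prior variance Irf8, Itgav, Rhbdf2, Arid5a, Zfp36l1, Zfp36l2, Rc3h1, Adgre1, Cebpd, Bcl3 and Ltb also passed. All of these but Bcl3 passed with the median level as a filter, and all but Bcl3, Ltb and Rhbdf2 with the receptor percentile as one. Irf8 also passed with further quantile normalization and with array weights, at adjusted p of 0.0498 and 0.0424 (limma). Ebi3 changed sign to -0.011 with all its probe sets averaged and ran from -0.017 to 0.029 without 1 array, and Tnfrsf1a from -0.0088 to 0.059. Itgax, Il10rb, Il12rb2, Thbs1, Nfkbiz, Irf1 and Atf3 were not read under the alternatives.

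Signal near background limits Il12a and Il12b, a level near the top of the scale limits Tnf, and 3 arrays per group limit all intervals.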
